A study of Mus musculus with 5 samples.

Results

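Naïve lung ILC2s that carried transcripts of the T cell receptor (TCR) and its CD3 partners were examined in single-cell RNA data. A naïve cell was counted as gated when it had at least 1 UMI (unique molecular identifier, 1 counted RNA molecule) of *Il1rl1* and none of *Il23r*. It also had to hold UMIs of at least 3 of 9 genes: *Cd3d*, *Cd3e*, *Cd3g*, *Trac*, *Trbc1*, *Trbc2*, *Trdc*, *Tcrg-C1* and *Tcrg-C2*. *Il1rl1* encodes ST2, the receptor for IL-33 by which ILC2s are sorted, and *Il23r* encodes a receptor of type 17 lymphocytes. The gate held 1082 of the 6389 naïve cells kept (16.9%, exact binomial 95% interval 16.02 to 17.88), among 16530 cells in all 5 libraries. They were set beside 451 naïve *Il1rl1*+ cells with at least 2000 UMIs and no UMI of any of the 9 genes, called none-of-9 cells below. Since measured values of the 9 genes chose the cells, the levels of those genes are given as a description.

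The cells came from lungs of wild-type C57BL/6 female mice of 4 to 8 weeks of age, and the RNA of single cells was counted on the 10x Genomics platform. The naïve library held unstimulated ILC2s of mice without a tumour. The ta-non-activated libraries held freshly isolated ILC2s of mice with a subcutaneous TC1 tumour (a line of immortalised, oncogene-transformed C57BL/6 lung epithelial cells), taken in weeks 2 and 3, and the ta-activated libraries held such cells after a further week in culture, where they were given TSLP and the cytokines rmIL-33 and rhIL-2. Each library pooled cells of 5 mice, which cannot be separated in the files. All cells had been enriched and then sorted as CD45+ ST2+ CD127+ Thy1.2+ and negative for a lineage cocktail. That cocktail included antibodies to CD3ε/γ, TCRβ, CD4, CD8α and NK1.1, so cells with a full TCR complex at their surface were meant to be removed. The sort reads protein at the surface and the libraries read RNA.

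The naïve library was shallower than 3 of the other 4. Barcodes were kept at 200 or more genes and with mitochondrial UMIs below 5%. The median depth then was 4517 UMIs in the 6389 naïve cells. It was 16090 and 4396 UMIs in the 1823 and 1601 ta-non-activated cells of weeks 2 and 3, and 13636 and 12296.5 UMIs in the 2895 and 3822 ta-activated cells. The deposited matrices summed to 33522126 UMIs (naïve), 33324823 and 9910201 (ta-non-activated), and 68919437 and 71126524 (ta-activated). Pairs of libraries shared 1 to 8 cell barcodes, at most 0.375% of the smaller library. The week 3 ta-non-activated library stood apart, since 917 of its 1601 cells (57.3%) had 3 or more of the 9 genes and no UMI of *Il1rl1* or *Il23r*, against 263 of 6389 (4.12%) in the naïve library. With 1 naïve library there was no replicate and no test of naïve cells. Intervals given for shares (exact binomial) and levels (exact Poisson) are 95% intervals that cover counting error only.

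A mature TCR pairs an α with a β chain or a γ with a δ chain, and it reaches the surface of a T cell in a complex with the CD3γ, CD3δ and CD3ε chains and the ζ chain encoded by *Cd247*. *Trac*, *Trbc1* and *Trbc2*, *Trdc*, and *Tcrg-C1* and *Tcrg-C2* encode the constant regions of the α, β, δ and γ chains. Innate lymphoid cells share much of their early development and many transcription factors with T cells but are held to lack a functional antigen receptor. Unrearranged constant-region genes can be transcribed.

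The sequences of the β constant genes are shown because nearly all gated cells were chosen through at least 1 of them. In GENCODE M21 on GRCm38, *Trbc1* (chr6:41538218-41539881) and *Trbc2* (chr6:41546730-41548352) lie on the + strand with 4 exons each. Their coding parts have 518 bases each and are 95.6% identical, with 23 differing bases, none of them in the first 259. Both transcripts are shown from coding base 259 to the last coding base, 5′ to 3′, with the bases that differ between them in capitals.
Trbc1: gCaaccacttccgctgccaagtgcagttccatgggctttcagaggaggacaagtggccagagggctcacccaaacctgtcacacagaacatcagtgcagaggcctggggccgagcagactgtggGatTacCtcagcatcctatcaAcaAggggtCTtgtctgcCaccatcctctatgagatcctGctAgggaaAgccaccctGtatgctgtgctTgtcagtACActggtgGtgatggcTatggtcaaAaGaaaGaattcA
Trbc2: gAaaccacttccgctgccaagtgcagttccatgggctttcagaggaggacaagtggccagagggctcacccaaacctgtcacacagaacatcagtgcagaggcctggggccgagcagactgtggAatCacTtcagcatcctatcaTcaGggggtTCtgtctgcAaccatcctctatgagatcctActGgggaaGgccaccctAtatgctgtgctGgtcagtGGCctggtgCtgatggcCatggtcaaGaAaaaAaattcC
After the coding part, 219 bases of the *Trbc1* transcript and 174 of *Trbc2* shared no run longer than 8 bases. Reads of a 3′ library that reach the 3′ end can therefore tell the genes apart, and reads that end in the identical stretch of 259 bases cannot. Which positions the reads covered is not recorded in the counts, so the split between *Trbc1* and *Trbc2* is uncertain. The sequences of *Tcrg-C1* (chr13:19214103-19217024) and *Tcrg-C2* (chr13:19304649-19307551) were not compared, so how well reads tell these genes apart was not tested.

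The gated cells carried the markers of ILC2s. The sum of 24 ILC2 identity genes was 10650.2 CPM (UMIs of a gene per 1000000 UMIs summed over a class of cells), against 12902 CPM in none-of-9 cells and 7699 CPM in 333 naïve *Il23r*+ cells with 3 or more of the 9 genes. *Gata3*, the master transcription factor of type 2 lymphocytes, was at 843 CPM in gated cells, 969 CPM in none-of-9 cells and 217 CPM in *Il23r*+ cells. *Il1rl1*, which the rule requires of gated and none-of-9 cells, is given only as a description, at 878, 1164 and 122 CPM in that order. *Rora* (2964 and 3907 CPM) and *Il7r* (1240.3 and 1390.3 CPM) were likewise abundant in gated and none-of-9 cells. The co-receptor genes *Cd4*, *Cd8a* and *Cd8b1* were at 0 UMIs in the 1082 cells, where 3 UMIs would have been 0.442 CPM.

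Of the 9 genes, 3 made up the bulk of the gate. *Trbc2* was found in 1064 gated cells (98.3%), *Trbc1* in 995 (92.0%) and *Cd3g*, the γ chain of CD3, in 881 (81.4%). Their levels were 609.9 CPM (95% interval 591 to 629), 379 CPM (365 to 394) and 440.5 CPM (425 to 457). *Tcrg-C1* was found in 217 cells (20.1%) at 56.6 CPM, and *Cd3e* in 128 (11.8%) at 31.0 CPM. The rest were rare: *Trac* in 67 cells (6.19%), *Cd3d* in 47 (4.34%), *Trdc* in 42 (3.88%) and *Tcrg-C2* in 27 (2.50%), all at or under 11.5 CPM. The *Il23r*+ cells had the *Trbc* genes at a like level, with *Trbc2* at 724 CPM and *Trbc1* at 398 CPM. They had far more of the rare ones, with *Cd3d* at 441 CPM, *Cd3e* at 414 CPM, *Trdc* at 370.0 CPM and *Trac* at 131 CPM.

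Depth was then made equal by drawing 2000 UMIs from each cell. At that depth, *Cd3g* was found in 54.6% of 1079 gated cells (51.6 to 57.6), in 25.4% of the 1952 cells just outside the threshold with exactly 2 of the 9 genes, and in 72.6% of 332 *Il23r*+ cells. *Trbc2* was found in 70.7%, 68.3% and 68.1% of those classes, and *Trbc1* in 53.9%, 38.7% and 39.2%. Free RNA can give UMIs to cells that do not express a gene, and endothelial cells should lack all 9. Endothelial-marker cells had no *Il1rl1* and UMIs of at least 2 of 5 genes (*Ramp2*, *Cldn5*, *Cdh5*, *Egfl7* and *Calcrl*). *Calcrl* was also at 309.5 CPM in gated cells. Among 34 such naïve cells (median 3118 UMIs against 5430.5 in gated cells), 24 had 2000 UMIs. Of these 24, 3 (12.5%) held 3 or more of the 9 genes, and 1 held all 3 CD3 chains with *Trdc* and a *Tcrg-C* gene. The shares in the 24 cells thus rest partly on a few cells. Each of *Trbc2*, *Trbc1* and *Cd3g* was found in 20.8% of the 24 (7.13 to 42.2). Gated cells were chosen on these UMIs, so the rule fixes that their own share lies higher. *Cd3d* was found in 1.76% of gated cells and 12.5% of endothelial-marker cells (2.66 to 32.4), *Tcrg-C1* in 8.62% and 12.5% (2.66 to 32.4), and *Trdc* in 1.67% and 4.17% (0.105 to 21.1), so these shares in gated cells were not above those of the 24 cells, whose intervals are wide. *Cd3e* reached 6.02% (4.68 to 7.61) against 4.17%, a difference within the counting error of 24 cells. *Trac* (2.87% of gated cells) and *Tcrg-C2* (1.20%) were found in 0 of the 24, for which the interval reaches 14.2%. The endothelial-marker cells held other lymphocyte transcripts too, with *Gata3* in 33.3% and *Il7r* in 41.7% of the 24. Whether all of them were endothelial was not tested.

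**Figure D1:**
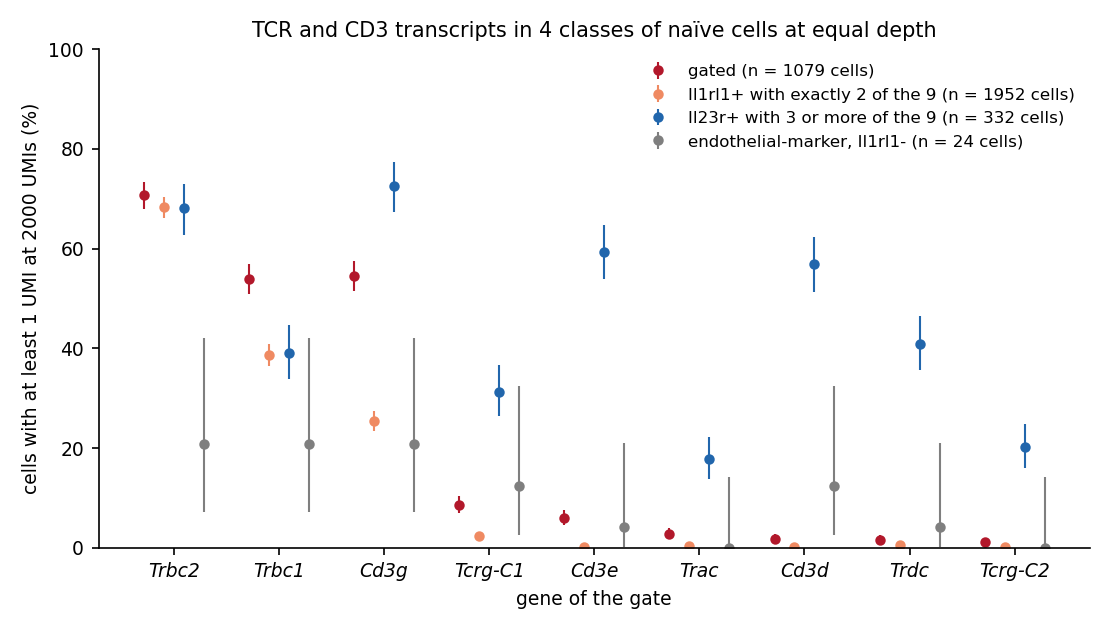
Percent of naïve cells with at least 1 UMI of each of the 9 genes (x axis) after 2000 UMIs had been drawn from each cell; points are shares, bars exact binomial 95% intervals and colours cell classes. Gated cells had *Trbc2* (70.7%), *Trbc1* (53.9%) and *Cd3g* (54.6%) but, unlike *Il23r*+ cells, *Cd3d* in only 1.76% and *Trdc* in 1.67%.

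Most gated cells held one set of genes. *Cd3g*, *Trbc1* and *Trbc2* with none of the other 6 were found in 622 cells (57.5%, 54.5 to 60.5), and *Trbc1*, *Trbc2* and *Tcrg-C1* in 129 (11.9%). The next 3 sets were *Cd3e*, *Cd3g*, *Trbc1* and *Trbc2* (59 cells), *Cd3g*, *Trbc1*, *Trbc2* and *Tcrg-C1* (45 cells), and *Cd3e*, *Cd3g* and *Trbc2* (37 cells), of 53 distinct sets in all. Exactly 3 of the 9 genes were present in 906 cells, 4 in 150 and 5 or more in 26. Between the cells on either side of the threshold, the median depth was 4733 UMIs with exactly 2 of the genes and 5331.5 UMIs with exactly 3. A gate that asked for at least 1 of the 6 genes other than *Cd3g*, *Trbc1* and *Trbc2*, chosen after seeing the data, held 702 cells.

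Complete receptors were rare at the RNA level. All of *Cd3d*, *Cd3e* and *Cd3g* were found together in 17 of 1082 gated cells (1.57%, 0.918 to 2.50), against 252 of 333 *Il23r*+ cells (75.7%). *Trac* with a *Trbc* gene was found in 67 gated cells (6.19%) and *Trdc* with a *Tcrg-C* gene in 10 (0.924%), against 97 and 156 of the *Il23r*+ cells. The 3 CD3 chains together with both constant regions of a receptor were seen for αβ in 2 gated cells and for γδ in 6. The gated and *Il23r*+ cells had similar median depths of 5430.5 and 5598 UMIs.

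How many cells passed the gate followed their depth. Of *Il1rl1*+ *Il23r*- cells with 2000 to under 4000 UMIs, 13.8% passed, from there to under 6000 UMIs 20.3%, to under 10000 UMIs 30.4%, and with 10000 or more UMIs 49.6% (43.2 to 56.0, n = 250 cells). When the 9 genes, but not *Il1rl1* and *Il23r*, were read from 2000 UMIs drawn from each cell, the shares in the same bins were 6.94%, 6.72%, 7.10% and 5.2%. Over these 4958 cells 451 (9.10%) had none of the 9 genes, and at 2000 UMIs 1133 (22.9%) had none. The none-of-9 cells were shallower than gated cells, with a median of 3884 against 5430.5 UMIs, so depth and class cannot be fully told apart.

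**Figure D2:**
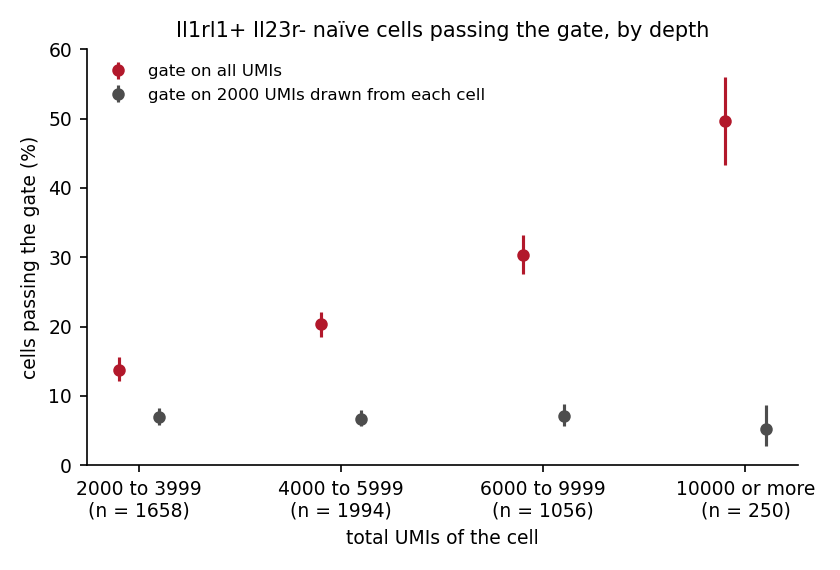
Share of naïve *Il1rl1*+ *Il23r*- cells that passed the gate (y axis, %) in 4 bins of total UMIs, on all UMIs (red) and with the 9 genes read from 2000 UMIs drawn from each cell (grey), with exact binomial 95% intervals. The share rose from 13.8% to 49.6% across the bins and lay between 5.2% and 7.10% at equal depth.

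The UMIs left over after the draw gave the levels of the 9 genes in molecules that had not chosen the cells. Here *Il1rl1* and *Il23r* were read from the 2000 drawn UMIs as well, which left fewer cells: 279 passed the gate and were set beside 978 cells with none of the 9 genes in the draw. In the left-over UMIs *Cd3g* was at 547 CPM in the first, 203 CPM in cells with 1 or 2 genes in the draw and 60.3 CPM in cells with none. *Trbc1* stepped down in the same order from 409.8 to 252 and 137 CPM, and *Trbc2* from 606 to 524 and 298 CPM. *Cd3e* was at 73.8, 7.60 and 2.81 CPM, and *Trdc* at 70.4, 2.53 and 1.56 CPM. *Cd3d* was at 25.0, 3.52 and 0.625 CPM and *Tcrg-C1* at 74.9, 25.6 and 16.6 CPM. *Il23r*, at 0 in the draw, was at 19.3, 3.19 and 4.06 CPM. Cells chosen on some of their molecules thus held more of the same genes in the rest, and cells with none in the draw still held *Trbc2* and *Trbc1*.

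Variable segments, which a rearranged receptor needs, were mostly those of 1 δ-chain segment. Over 174 annotated V segments the level was 86.0 CPM in gated cells, 89.1 CPM in none-of-9 cells and 112 CPM in *Il23r*+ cells. *Trdv4*, a δ-chain segment, made up most of it in the first 2 classes, with 77.9 CPM (71.4 to 84.8) and 83.7 CPM (71.1 to 97.9), against 47.9 CPM (39.1 to 58.2) in *Il23r*+ cells. UMIs of any V segment were in 35.2% of gated, 26.2% of none-of-9 and 36.9% of *Il23r*+ cells. Without *Trdv4* the level was 8.11 CPM (6.11 to 10.6) in gated, 5.37 CPM (2.57 to 9.87) in none-of-9 and 64.4 CPM (54.1 to 76.1) in *Il23r*+ cells. Segments of the α and β loci (*Trav*, *Trbv*) had 4 UMIs each in all gated cells, and γ segments 33 UMIs (4.87 CPM). The 80 D and J segments were at 11.9 CPM (9.49 to 14.8) against 3.76 CPM (1.51 to 7.74) in none-of-9 cells.

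The 26 cells with 5 or more of the 9 genes are described here only by their levels. The number of these genes chose the cells, so high levels of the 9 follow from the choice. In the 26 cells *Cd3d* was at 246 CPM, *Cd3e* at 188 CPM, *Trdc* at 149 CPM and *Cd3g* at 805 CPM, and 16 of the 26 held all 3 CD3 chains. *Gata3* was at 598 CPM and *Il1rl1* at 593 CPM, lower than in cells with exactly 3 genes (848 and 890.3 CPM). The cytotoxic lymphocyte genes *Ccl5* (853 CPM) and *Nkg7* (188 CPM) were at 74.3 and 21.5 CPM in cells with exactly 3. Their median depth was 7935.5 UMIs, and 8 of 26 (30.8%) lay in the top 6% of doublet scores (Scrublet) of the library. That share was 9.33% of all gated cells, 5.51% of cells with 1 or 2 genes and 2.22% of none-of-9 cells. Doublets were not removed, since the automatic threshold of the caller marked 1 naïve cell.

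Outside the genes of the rule, gated and none-of-9 cells differed little. Of 5911 genes at or above 20 CPM in either class, 12 were at least 2-fold higher in gated cells (0.203%) and 14 at least 2-fold lower (0.237%), on the scale of CPM + 10, which understates the change of low genes. The 2-fold calls in the naïve library below use this scale unless another is named. Without the top 6% of doublet scores the counts were 13 and 15, and 11 and 14 of the same genes were among them. Without cells above the 95th percentile of UMIs 7 genes were higher and 17 lower. Within bins of total UMIs weighted to the gated cells, 21 were higher and 97 lower.

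Of the NK or ILC1 list 4 genes were tested and 3 were at least 2-fold higher, where 0.203% of all 5911 genes were. *Nkg7*, a granule protein gene, was at 26.8 CPM in gated and 1.07 CPM in none-of-9 cells (2 UMIs in the latter, with a counting interval of the fold from 6.82 to 208). *Ccl5*, a chemokine gene, was at 106 and 36.0 CPM (2.29- to 3.85-fold), and *Klrk1*, which encodes the receptor NKG2D, at 22.4 and 4.83 CPM. *Ms4a4b*, a membrane protein gene of T and NK cells, was at 20.6 and 1.61 CPM. The summed NK or ILC1 list of 17 genes was at 217 CPM against 62.2 CPM and 814 CPM in *Il23r*+ cells. Its most abundant gene was *Ccl5*. *Nkg7*, *Klrk1* and *Ms4a4b* reached the 20 CPM floor through gated cells alone, so the floor fixed the direction of their ratios. The defining markers *Ncr1* (2.06 CPM), *Eomes* (0.442 CPM) and *Klrb1c* (0.590 CPM) were near 0.

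Of 11 cytokine genes tested, *Il4* passed 2-fold, beside 0.44% of all genes in either direction, and it reached the 20 CPM floor through gated cells alone. *Il4*, a type 2 cytokine, was at 47.3 CPM (42.3 to 52.8) in gated and 10.2 CPM (6.14 to 15.9) in none-of-9 cells, a log2 ratio of 1.51, with UMIs in 95 (8.78%) and 8 (1.77%) of the cells. It stood at 133 CPM in cells with exactly 4 of the 9 genes and at 0 UMIs in the 26 cells with 5 or more. *Il13* was at 62.2 and 40.8 CPM and *Il5* at 178 and 238 CPM, log2 ratios of 0.51 and -0.40. *Areg*, a growth factor gene of ILC2s, was at 1013 and 980.4 CPM and *Csf2* at 459 and 407 CPM. The median log2 ratio of these 11 genes was 0.00.

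The other higher genes were *Stmn1* (a microtubule regulator of dividing cells, 29.0 and 3.76 CPM), *Actn2*, *Plac8*, *Rrad*, *Enah*, *Cd74* and *Scgb1a1*. *Scgb1a1*, the secretory protein gene of airway club cells, had the largest log2 ratio at 3.11 (719 and 74.6 CPM). A single gated cell held 4317 of its 4875 UMIs (88.6%), and without the top cell of each class the log2 ratio was 0.42. *Actn2*, *Plac8*, *Rrad*, *Enah* and *Cd74* had log2 ratios of 1.22, 1.17, 1.12, 1.11 and 1.06. Of these, *Rrad* was above the 20 CPM floor in both classes; *Stmn1*, *Actn2*, *Plac8*, *Enah* and *Cd74* passed it through gated cells alone, which fixed their direction. Just below 2-fold on the CPM + 10 scale were *Cd247*, the ζ-chain partner of CD3 (39.4 and 15.02 CPM), *Anxa2* (75.8 and 33.8 CPM) and *Prelid2* (37.0 and 15.02 CPM). As plain ratios of CPM they were 2.62-fold (*Cd247*, interval 1.77 to 4.02), 2.24-fold (*Anxa2*) and 2.46-fold (*Prelid2*). *Cd247* and *Prelid2* passed the floor through gated cells alone as well. At 2000 UMIs *Cd247* was found in 6.95% of gated and 2.22% of none-of-9 cells. When the gate was set on drawn UMIs and levels were read from those left over, *Scgb1a1*, *Stmn1* and *Cd74* turned to log2 ratios of -2.32, -1.99 and -0.37.

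**Figure D3:**
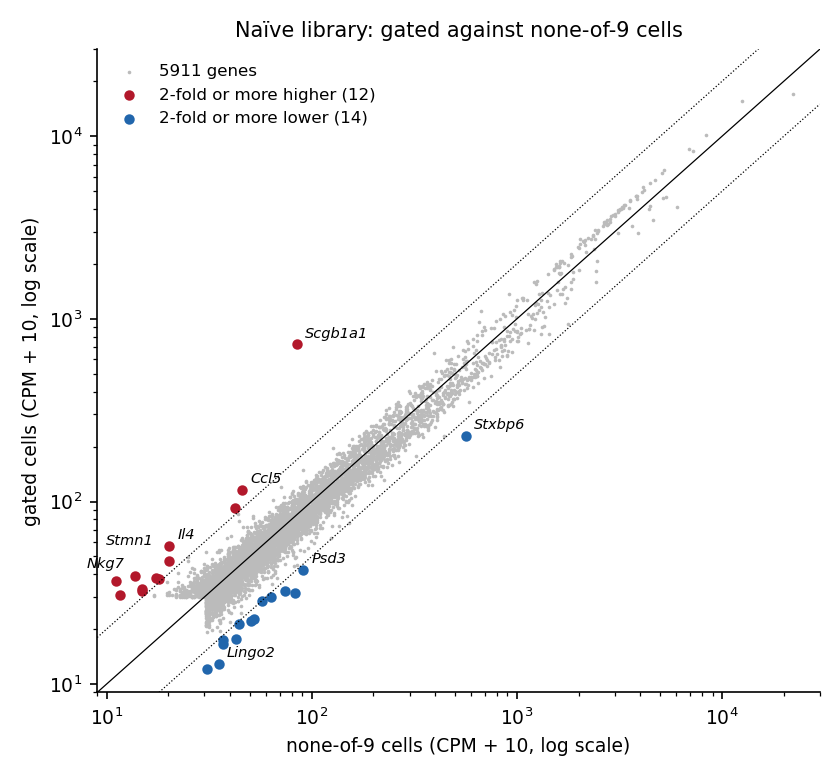
Level of each of 5911 genes (CPM + 10, log axes) in none-of-9 cells (x) and gated cells (y) of the naïve library, with the line of equality and dotted 2-fold lines. Most genes lie along the line; 12 were 2-fold or more higher (red), among them *Ccl5*, *Il4* and *Nkg7*, and 14 lower (blue), led in abundance by *Stxbp6*.

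The 14 lower genes were led in abundance by *Stxbp6*, a syntaxin-binding protein gene, at 219.9 CPM in gated and 555 CPM in none-of-9 cells (log2 ratio -1.30). UMIs of *Stxbp6* were in 32.1% of gated and 51.0% of none-of-9 cells, although gated cells were deeper. *Psd3* was at 32.3 and 81.0 CPM. *Lingo2* (-1.44), *Sema3c* (-1.36), *Pcdh7* (-1.27), *Gm5127* (-1.21), *Gm26802* (-1.21), *Hpgd* (-1.20) and *Ptprb* (-1.15) followed by log2 ratio. All of these but *Gm26802* were under the 20 CPM floor in gated cells and passed it through none-of-9 cells alone, which fixed their direction. Several of these rested on few none-of-9 cells. *Sema3c* had UMIs in 6 of them, *Lingo2* in 8, *Hpgd* and *Ptprb* in 9 each and *Pcdh7* in 11. Without the top cell of each class the log2 ratios of *Sema3c*, *Pcdh7*, *Hpgd* and *Ptprb* were -0.37, -0.53, -0.68 and -0.87, short of 2-fold. Without those top cells, a choice made after seeing the data, 8 genes stayed at least 2-fold lower in place of 14.

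ILC2 identity genes were expressed in both classes. Of 22 tested, none was 2-fold higher or lower, a share near that of all 5911 genes (0.44% in either direction), and the median log2 ratio was -0.21 against -0.06 over all genes. *Icos*, a co-stimulatory receptor gene, was at 475 and 737 CPM (-0.62), *Il2ra* at 434 and 635 CPM (-0.54) and *Calca*, which encodes the peptide CGRP, at 169 and 312 CPM (-0.85). *Klrg1*, a receptor gene of mature ILC2s, was at 80.8 and 59.0 CPM (0.40). The *Il23r*+ cells had *Klrg1* at 12.7 CPM, *Calca* at 49.4 CPM and *Pparg* at 53.1 CPM, where gated cells had *Pparg* at 368 CPM.

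Genes that signal below the TCR were detected in gated and none-of-9 cells. Of 20 genes of CD3 partners and TCR signalling tested, none was 2-fold apart, near the 0.44% of all genes (median log2 ratio 0.06). *Skap1*, an adaptor of T cells, was at 1441 and 1818 CPM, *Lat* at 95.4 and 68.1 CPM, *Lck* at 38.2 and 25.8 CPM and *Zap70* at 81.3 and 77.3 CPM. Of 13 tested genes of T lineage transcription none was 2-fold apart either (median -0.13). *Bcl11b* was at 295 and 256 CPM and *Tcf7*, a factor of early T and innate lymphoid cells, at 30.7 and 12.3 CPM (0.86). *Rag1*, *Rag2*, *Dntt* and *Ptcra*, which serve receptor rearrangement and its first checkpoint, were at 0 UMIs in gated and none-of-9 cells.

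Surface genes of T cells were mixed. Of 16, 5 were tested and none was 2-fold apart: *Thy1* (245 and 203 CPM), *Cd28* (24.9 and 13.4 CPM), *Cd27*, *Pdcd1* and *Cd226*. *Cd40lg*, the helper ligand gene, lay under the 20 CPM floor with 83 UMIs in gated cells and 1 UMI in none-of-9 cells. *Cd5* had 2 and 1 UMIs and *Cd6* 7 and 3.

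**Figure D4:**
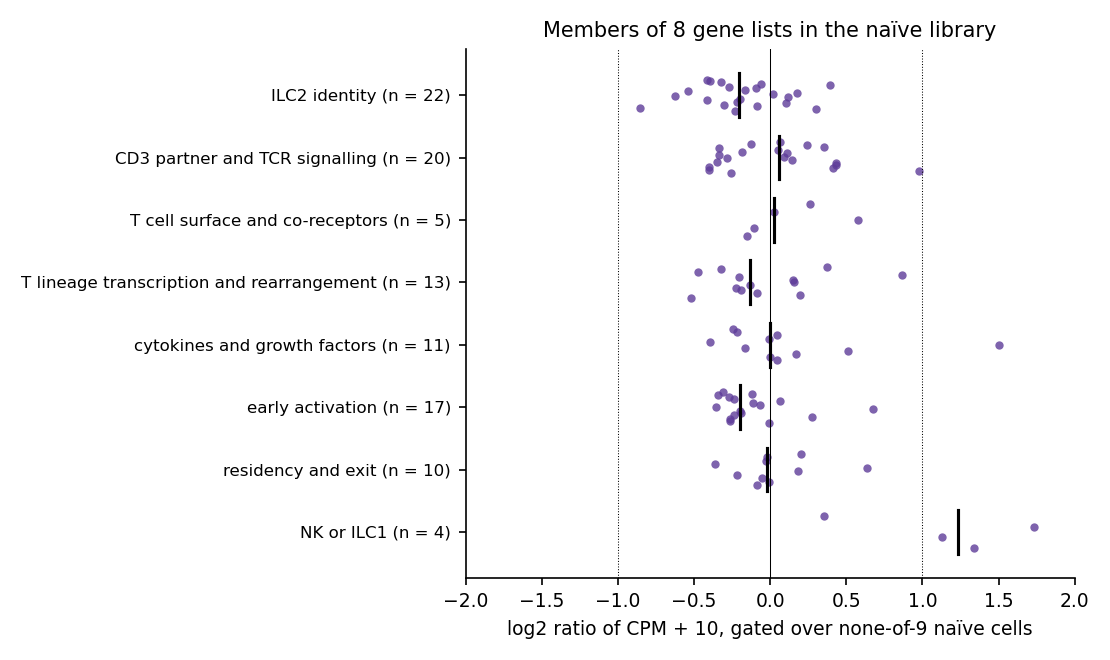
Log2 ratio of CPM + 10, gated over none-of-9 naïve cells (x axis), for each tested member of 8 gene lists (points), with the list median (black bar) and dotted lines at 2-fold. The medians lay between -0.21 and 0.06 in 7 lists; of the 4 points of the NK or ILC1 list, *Nkg7* and *Klrk1* passed the 20 CPM floor through gated cells alone.

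Markers of type 17 T cells were lower in gated than in *Il23r*+ cells. The list summed to 760.2 CPM in gated, 782 CPM in none-of-9 and 3451 CPM in *Il23r*+ cells, and its most abundant gene in gated cells was *Tmem176a* (289.9 CPM, against 597 CPM in *Il23r*+ cells). *Blk* was at 0.885 CPM in gated and 251 CPM in *Il23r*+ cells, *Il1r1* at 1.03 and 366 CPM, *Cd163l1* at 3.39 and 304 CPM and *Il17a* at 8.11 and 138 CPM. Of 3 tested members of that list, none was 2-fold apart from none-of-9 cells. The regulatory T cell factor *Foxp3* had 1 UMI in all gated cells. Early activation genes (17 tested, median -0.20) and genes of tissue residency and exit (10 tested, median -0.02) had no member 2-fold apart, with *Irf4* (0.68) and *Klf2* (0.63) the highest in each.

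Markers of other cell types were read in the same classes. Of the B cell list *Ms4a1* and *Pax5* were at 0 UMIs, of the myeloid list *S100a8* and *S100a9*, and of the mast and basophil list *Mcpt8*, *Ms4a2* and *Cma1*. The B cell sum was 52.6 CPM in both classes, nearly all *Ighm*, and the myeloid sum 160.3 against 149 CPM, nearly all *Cst3*. The endothelial sum was 384 CPM against 534 CPM, most of it *Calcrl* (309.5 and 416 CPM), with *Cldn5* at 2.51 and 8.05 CPM. The epithelial sum was 767 against 115 CPM and was almost entirely *Scgb1a1*, with *Sftpc* at 8.11 and 10.2 CPM. The mast cell gene *Cpa3* was at 21.2 and 52.0 CPM. Of 12 proliferation genes 3 were tested, and *Stmn1* and *Top2a* passed the floor through gated cells alone. *Top2a* was at 26.2 and 9.66 CPM and *Hmgb2* at 381 and 291 CPM. The part of these cells in the results was not tested.

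The same gate was then applied in the other libraries. With 2000 UMIs drawn from each cell, 279 of 6147 naïve cells passed (4.54%, 4.03 to 5.09), and 1 of 1809 (0.0553%) and 30 of 1495 (2.01%) ta-non-activated cells of weeks 2 and 3. Of the ta-activated cells 4 of 2822 (0.142%) and 8 of 3714 (0.215%) passed. *Il1rl1*, which the rule requires, was found at that depth in 67.7% of naïve, 11.2% and 19.7% of ta-non-activated and 5.17% and 19.4% of ta-activated cells. Among cells with *Il1rl1* the shares were 6.70% in the naïve library, 0.495% and 10.2% in ta-non-activated and 2.74% and 1.11% in ta-activated libraries. The shares were not tested between the groups, which hold 1 or 2 libraries each, and a difference in cells cannot be told apart from one in RNA per cell. On all UMIs the shares were 17.6%, 7.52%, 4.55%, 5.49% and 8.05% in the same order.

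Gated cells of the tumour libraries were 136 and 73 (ta-non-activated, weeks 2 and 3) and 155 and 299 (ta-activated). In each, *Trbc2* was found in 98.5% or more of them and *Cd3g* in 73.6% to 82.2%, as the rule favours. *Cd3g*, *Trbc1* and *Trbc2* alone made up 48.5%, 57.5%, 35.5% and 46.2%. All 3 CD3 chains were found in 3, 8, 2 and 6 cells. The 73 cells of week 3 had *Cd3d* at 229 CPM, *Trdc* at 127 CPM and *Trbc2* at 1715 CPM, against 5.23, 2.35 and 297 CPM in the 136 cells of week 2, and 9 of the 73 held 5 or more of the 9 genes. *Trdv4* was at 139 CPM in the week 3 ta-non-activated gated cells and at 2.69 to 4.201 CPM in those of the other tumour libraries. It was at 298 CPM in the none-of-9 cells of that week 3 library, above the gated level. The naïve matrix was counted with another Cell Ranger version than the other 4, so levels set across them may differ for that reason as well.

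The tumour libraries were not used by the rule, so genes outside it could be tested there, gated against none-of-9 cells of the same library, with edgeR's quasi-likelihood test on summed counts and the library as a block (n = 4 libraries). With that block, the p-values set each change against how much the gated to none-of-9 ratio varied between these 4 pooled libraries. The libraries differ in week and activation and are not replicates of a single condition. Of 9225 genes tested, 247 were higher (2.68%) and 163 lower (1.77%) in gated cells at an adjusted p under 0.05, and 317 of these 410 (4.44% of those tested) changed the same way in all 4 libraries. Gated cells were far deeper in 3 of the 4 libraries, with medians of 21910.5 against 13828.5, 3145 against 3059, 35425 against 13117.5, and 23039 against 10179 UMIs. In cells matched 1 to 1 on total UMIs, chosen after seeing the data, 21 genes were higher (0.28%) and 18 lower (0.24%) of 7488, or 0.521% in either direction, and 18 and 12 of them were among the calls above. Of the 328 earlier calls that could be fitted after matching, 316 kept their direction. Without the week 3 ta-activated library, which held most cells, 42 were higher and 32 lower. Without the week 3 ta-non-activated library 211 and 142 were called.

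Genes of dividing cells were higher in the gated cells. All 12 genes of the proliferation list were tested and all 12 rose, where 2.68% of all genes tested rose, with a median log2 fold change of 1.89 against -0.00 over all 9225 genes. *Hmgb2*, a chromatin protein gene, was at 388, 1263, 391 and 651 CPM in gated cells and at 143, 477, 143 and 234 CPM in none-of-9 cells (ta-non-activated weeks 2 and 3, ta-activated weeks 2 and 3). The gated cells were higher in each library, with a log2 fold change of 1.42 ± 0.11 (SE) and an edgeR adjusted p of 1.34e-05. *Mki67*, the proliferation marker, was at 54.1, 43.3, 111 and 186 CPM against 10.5, 0, 50.4 and 37.9 CPM (1.93 ± 0.23). *Pclaf*, a DNA replication factor gene, was at 125, 266, 209.5 and 205 CPM against 32.1, 0, 46.0 and 26.9 CPM (2.50 ± 0.25). The 0 in each is that of 43 none-of-9 cells of the week 3 ta-non-activated library. After matching on UMIs 6 of the 12 passed the threshold, where 0.28% of all genes tested were higher, with a median of 1.21: *Mki67*, *Top2a*, *Birc5*, *Pclaf*, *Stmn1* and *Hmgb2*. Within bins of UMIs the list median was 0.81, -0.03, 1.21 and 1.29 in the 4 libraries, so it was not higher in the week 3 ta-non-activated library.

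**Figure D5:**
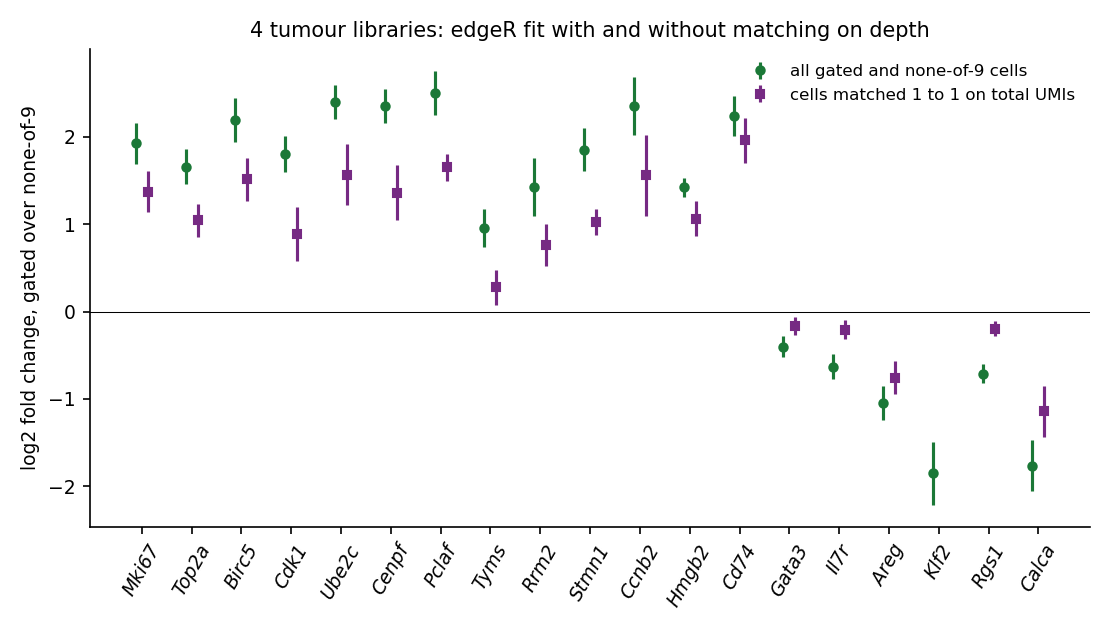
Log2 fold change of selected list genes, gated over none-of-9 cells, in the edgeR fit over 4 tumour libraries, for all cells (green) and cells matched on total UMIs (purple); bars are standard errors, and *Klf2* was not fitted after matching. The 12 proliferation genes and *Cd74* lay above 0 in both fits, at smaller values after matching, and *Gata3* (-0.40) and *Il7r* (-0.63) moved to -0.16 and -0.21.

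*Cd74*, the invariant chain of MHC class II, was among the genes that kept their change after matching. It was at 234 and 52.6 CPM in gated cells of the ta-non-activated libraries and at 434 and 311 CPM in those of the ta-activated libraries. In none-of-9 cells it was at 28.9, 0, 90.2 and 100.7 CPM, so the classes differed in the same direction in all 4 libraries. The log2 fold change was 2.23 ± 0.23 (edgeR adjusted p 0.000169) and 1.96 ± 0.25 after matching (adjusted p 0.00177, range over the alternatives 8.75e-38 to 0.999952). In the naïve library *Cd74* was at 27.6 and 8.05 CPM. Of the 4 tested MHC class II genes 2 rose, where 2.68% of all genes tested rose. They were *Cd74* and *H2-DMb1*, which aids peptide loading (2.17 ± 0.43). After matching 2 genes of the list could be fitted, and only *Cd74* passed. *H2-Ab1* was at 42.3, 12.4, 77.7 and 29.4 CPM against 0.526, 0, 77.8 and 34.7 CPM.

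Of the 10 genes with the largest changes, 5 serve division, DNA replication and repair, or chromatin: *Pclaf*, *Bub1* (2.75), *Exo1* (2.71), *Plk1* (2.51) and the linker histone gene *H1fx* (2.60). *Lef1*, a transcription factor of T cells, had 246 UMIs in gated and 2 in none-of-9 cells of the 4 libraries and *Nkg7* 193 and 2, so their fitted changes of 5.47 ± 0.61 and 4.38 ± 0.70 depend on the prior count. *Lef1* stood at 2.35, 43.3, 7.68 and 18.8 CPM in gated cells. In the naïve library *Lef1* was at 42.2 CPM in gated and 51.0 CPM in none-of-9 cells. The remaining 3 genes encode immune signals. *Tnfrsf4* (the receptor OX40) was at 23.5, 6.19, 65.5 and 121 CPM against 13.1, 0, 2.65 and 4.98 CPM, a change of 3.31 ± 0.50. *Cd70*, the ligand of CD27, was at 35.0, 9.29, 50.3 and 292 CPM against 14.7, 7.46, 3.54 and 24.9 CPM (2.85 ± 0.35). *Ccl1*, a chemokine gene, was at 10.7, 437, 105 and 317 CPM against 7.36, 231, 0 and 2.38 CPM (3.802 ± 0.84), and missed the threshold in DESeq2 (adjusted p 0.161, range over the alternatives 9.82e-54 to 0.999952). *Tnfrsf4*, *Cd70*, *Ccl1* and *Pclaf* were the 4 of the 10 that could be fitted after matching and passed there too, at 3.04, 1.89, 1.89 and 1.65.

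Several ILC2 identity genes fell in the gated tumour cells. Of 21 tested, 4 fell and none rose, where 1.77% of all genes tested fell, with a median of -0.49: *Il7r* (-0.63 ± 0.14), *Hs3st1* (-1.15 ± 0.26), *Crlf2*, a chain of the TSLP receptor (-0.81 ± 0.18; not past the threshold in DESeq2), and *Calca* (-1.76 ± 0.29). After matching on UMIs none of the 21 passed and the median was -0.08. *Gata3* was at 341, 421, 479 and 786 CPM against 340.2, 589, 675 and 1153 CPM, level in week 2 ta-non-activated cells and lower in the other 3 libraries (-0.40 ± 0.12, not called). *Areg* fell (-1.04 ± 0.20), as did the residency genes *Klf2* (-1.85 ± 0.36) and *Rgs1* (-0.71 ± 0.10). Neither *Areg* nor *Rgs1* passed after matching, at -0.75 and -0.20.

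In the other lists few members changed, and 4.44% of all genes tested changed in either direction. Of 19 genes of CD3 partners and TCR signalling *Lck*, the kinase of the TCR complex, rose (2.20 ± 0.40), and of 5 T cell surface genes *Thy1* (0.85 ± 0.21). Of 13 T lineage genes *Lef1* and *Id3* (1.98 ± 0.44) rose. Of 14 cytokine genes *Lta* (1.01 ± 0.22) rose, of 5 NK or ILC1 genes *Nkg7* and *Ccl5* (0.64 ± 0.16), of 13 early activation genes *Irf4* (0.98 ± 0.23), and *Zfp36* fell (-0.82 ± 0.17). Of these, *Thy1*, *Lta*, *Ccl5*, *Irf4* and *Zfp36* could be fitted after matching and none passed there, and *Thy1*, *Lta*, *Ccl5*, *Irf4* and *Id3* missed the threshold in DESeq2. Of 3 regulatory T cell genes tested 1 rose, and after matching 1 of the 3 was higher as well. No tested member of the type 17, B cell, myeloid, epithelial or endothelial lists passed the threshold.

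The naïve differences were followed into that test. Of the 15 genes named as highest in naïve gated cells, 12 were tested and 5 rose in the tumour libraries, where 2.68% of all genes tested rose: *Nkg7*, *Stmn1*, *Plac8* (1.80 ± 0.34), *Ccl5* and *Cd74*. In the naïve library the direction of all of these but *Ccl5* was fixed by the 20 CPM floor, and *Stmn1* and *Cd74* had negative log2 ratios on left-over UMIs (-1.99 and -0.37). *Ccl5* passed neither after matching (0.12) nor in DESeq2. *Nkg7* and *Plac8* could not be fitted after matching, and *Stmn1* (1.02) and *Cd74* (1.96) passed there. Gated cells had the higher median depth in the naïve library and in each tumour library, so both comparisons share that difference. *Il4* did not differ past the threshold (-0.12 ± 0.26), with 11.5, 0, 41.0 and 25.3 CPM in gated and 5.26, 7.46, 36.2 and 39.0 CPM in none-of-9 cells. *Actn2* was at 0.48 ± 0.18 and passed after matching at 1.04 ± 0.17. *Ms4a4b* went the other way from the naïve library and fell (-1.11 ± 0.20), with 0.10 after matching and no call in DESeq2. Of the 10 lowest only *Gm5127* and *Stxbp6* were tested, where 1.77% of all genes tested fell. *Gm5127* fell (-0.87 ± 0.21), but was not called in DESeq2 or after matching (-0.34 ± 0.24). *Stxbp6* had -0.78 ± 0.31 (not called).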

How the data were processed

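The authors deposited 1 matrix of UMI counts per library, made with Cell Ranger (6.0.0 for the naïve library and 3.0.2 for the other 4, per the file headers). The submitters' processing notes name GRCm38, and the annotation used for counting is not given in the sources used here. The naïve matrix listed 28831 genes and the others 27726, and the 27726 common genes were used. Of these, 27639 (99.7%) matched GENCODE M21, which gave positions and sequences. Cells were kept at 200 or more genes and under 5% mitochondrial UMIs, and doublet scores (Scrublet in scanpy 1.11.5) were recorded but removed no cell.

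Counts were summed per class and library. Naïve classes, with 1 library, were compared as CPM with exact Poisson intervals, and genes with at least 20 CPM in either class were called at 2-fold on the scale of CPM + 10. Over the 4 tumour libraries edgeR 4.0.16 (R 4.3.3; quasi-likelihood test, TMM, library as block, Benjamini-Hochberg adjustment, threshold 0.05) was used, with standard errors approximated from the fold change and the F statistic. Classes held at least 20 cells per library. Gated and none-of-9 cells of a library came from the same 5 pooled mice, and their deviations from the class means correlated at 0.75, 0.46, 0.64 and 0.70 in the 4 libraries, so the library paired them. On simulated counts for that comparison, 188 of 189 genes changed 4-fold were recovered (99.5%), with 4 false calls among 9089 genes. The simulation gave all genes a common dispersion and the same change in every library, and did not model the selection of cells. It therefore cannot show how reliable the calls reported here are.

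The members, the gene lists and the tests were chosen with earlier results of these data known. The text names the 15 highest and 10 lowest naïve genes by log2 ratio, the 10 largest changes past the threshold and of the same direction in all 4 tumour libraries, members of the gene lists, and the 11 genes of the rule. *Itgam* of the myeloid list had no row in the tables used. Some members of the named genes and lists are not reported here. Alternatives were DESeq2 1.42.0, other gates, floors and pseudocounts, drawn UMIs, left-out libraries and cells matched on UMIs within 0.2 log2 units.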

Additional observations from a re-analysis of the deposited data

Results flagged for a closer look

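Among 143 list and named genes, 5 moved in opposite directions in the tumour groups, up in both libraries of one and down in both of the other, as log2 ratios of CPM + 10 of gated over none-of-9 cells. The difference between the groups was not tested, and several values are close to 0. *Rasgrp1*, an exchange factor below the TCR, was at 0.29 and 0.047 in ta-non-activated cells (weeks 2 and 3) and at -0.099 and -0.37 in ta-activated cells. *Bcl11b*, a transcription factor of T cells and ILC2s, was at 0.28 and 0.54 against -0.013 and -0.12. *Nfatc2*, a factor that follows calcium signals, was at -0.019 and -1.55 against 0.38 and 0.068. *Tmem176b*, of the type 17 list, was at -0.40 and -0.54 against 0.23 and 0.14. *H2-Ab1*, an MHC class II chain, was at 2.31 and 1.16 against -0.0010 and -0.18.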

How the results depend on the processing

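The size of the gated class followed its definition: 3046 cells with at least 2 of the 9 genes, 176 with at least 4, 279 on 2000 drawn UMIs and 702 with at least 1 of the 6 genes other than *Cd3g*, *Trbc1* and *Trbc2*. Genes at least 2-fold higher and lower in naïve gated cells numbered 21 and 97 within UMI bins, 3 and 5 with a floor of 50 CPM, 24 and 30 with 1 CPM added, 25 and 25 when the gate was set on drawn UMIs and levels came from those left over, 30 and 39 with at least 4 genes, and 6 and 9 with at least 2. Without cells above the 95th percentile of UMIs 7 were higher, and without the top cell of each gene 8 were lower. Log2 ratios changed sign on left-over UMIs for *Scgb1a1* (-2.32), *Stmn1* (-1.99) and *Cd74* (-0.37), and with at least 4 genes for *Scgb1a1* (-0.44). Of the other values of named naïve genes under these alternatives, 363 stayed within the counting interval and 58 left it with no change of sign.

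The share passing the gate, in the order naïve, ta-non-activated weeks 2 and 3, ta-activated weeks 2 and 3, was 17.6, 7.52, 4.55, 5.49 and 8.05% on all UMIs, 0.977, 0, 0.568, 0 and 0.0265% on 1000 drawn UMIs, 22.8, 1.16, 7.09, 0.744 and 1.86% with at least 2 genes, and 0.553, 0, 0.0669, 0 and 0% with at least 4.

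Genes higher and lower in the tumour libraries numbered 142 and 96 with DESeq2, 606 and 333 with all genes of at least 1 count, 38 and 17 in ta-non-activated libraries alone, 346 and 271 in ta-activated libraries alone, and 21 and 18 in cells matched on UMIs. With 1 library left out in turn they ranged from 42 to 367 and from 32 to 270. With no replicate block, where the pairing within a library is ignored, edgeR called 0 and 0 (152 and 10 at an unadjusted p under 0.05), and none of the 10 named genes passed. The cause of these shifts was not tested. With the naïve library added 166 and 109 were called, 151 and 90 of them among the calls over 4 libraries.

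The naïve comparison has these limits. The gate selects deeper cells, 3 UMIs amount to 0.442 CPM in gated and 1.61 CPM in none-of-9 cells, and 1 library stands for naïve mice. *Trbc1*, *Trbc2* and *Cd3g* were also found in endothelial-marker cells, whose identity was not tested.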

Other observations

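The tetraspanin gene *Cd63*, *Sncg* and the growth factor gene *Vegfc* were singled out after their values had been seen. In the tumour libraries they fell in gated against none-of-9 cells, with log2 fold changes of -1.49 ± 0.17, -1.84 ± 0.16 and -1.11 ± 0.17 over all cells (edgeR, adjusted p under 0.05, n = 4 libraries) and -1.87 ± 0.28, -2.61 ± 0.38 and -1.48 ± 0.23 in cells matched on UMIs. *Cd63* was lower in each of the 4 libraries; *Sncg* and *Vegfc* had 0 UMIs in both classes of week 3 ta-non-activated cells.

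Cells without *Il1rl1* or *Il23r* that held 3 or more of the 9 genes numbered 263 in the naïve library, and 100 of them (38.0%) held all 3 CD3 chains.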
